A study of Homo sapiens with 12 samples.

Results

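The genes described here are the death ligand TRAIL (TNFSF10), the 4 membrane receptors that bind it, the related receptor Fas and the first proteins that act below them, 9 genes of the 19775 named on the arrays. They were chosen by symbol: a probe set counted as a member when its annotation named 1 of these symbols and no other, and each gene was read from its probe set with the highest mean over the 12 arrays. Each gene had from 1 (FADD) to 14 (CFLAR) such probe sets, and those that passed the filter on low values were also fitted singly as a check. All 9 genes passed the filter on low values and were among the 14285 genes tested.

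TRAIL and Fas ligand are cell-surface proteins that kill by joining their receptors into clusters. TRAIL receptors 1 and 2 (TNFRSF10A and TNFRSF10B) and Fas carry a cytoplasmic death domain that recruits the adaptor FADD, which in turn brings in the initiator protease caspase-8, and the caspase-8 relative encoded by CFLAR (c-FLIP) controls its activation. The decoy receptors TNFRSF10C and TNFRSF10D bind TRAIL without a working death domain. FoxO1 and FoxO3 are transcription factors that leave the nucleus when AKT phosphorylates them, and TNFSF10 has long been listed among their targets.

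The arrays came from RCC4 and UMRC2, established kidney cancer cell lines, each in 3 stably expressing forms grown under puromycin in DMEM with 10% FBS. The FoxO1 form expressed FoxO1(TA)-ERT2 and the FoxO3 form FoxO3(TA)-ERT2, in which 3 AKT sites of the FoxO protein were changed to alanine and the protein was fused to ERT2, a modified oestrogen receptor that responds to 4-hydroxytamoxifen (4OHT). The control form, EV, is labelled as expressing ERT2 alone. Every form received ethanol vehicle or 100 nM 4OHT for 12 hours, and each of the resulting 12 combinations was measured on 1 Affymetrix U133 Plus 2.0 array. The labels do not say whether the stable lines were clones or pools. With 1 array per combination, the tests of the constructs take their error from how far the lines and constructs depart from additive effects. The comparisons between the lines instead take it from the spread of the forms within a line. These forms share 1 parent line, so the p-values of those comparisons do not measure the spread between independent lines.

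A level is the log2 of the quantile-normalised intensity, with a floor at 4.17, and the median of every array is 6.62. A response is the level with 4OHT minus the level with vehicle in 1 line, and each FoxO response was set against that of EV in the same line. As deposited, array medians ran from 71.1 to 138.7. The RCC4 FoxO3 array with 4OHT stood apart: its median was 74.5 where the other RCC4 arrays had 121 to 138.7, although over 933 genes that separate the lines it correlated at 0.83 with RCC4 and 0.08 with UMRC2 vehicle arrays. Genes called with it are therefore also given without that pair. The fusion was read by 5 of 9 ESR1 probe sets, whose median vehicle level was 5.24, 9.17 and 12.42 in the EV, FoxO1 and FoxO3 forms of RCC4 and 4.59, 12.22 and 13.15 in those of UMRC2, so the fusions were not matched in abundance. These 5 were picked as at least 2 log2 units higher in every fusion form than in EV. In the EV forms at most 2 of the 9 ESR1 probe sets were above the array median on any array, the highest at 7.13, so the ERT2 named in the EV label was not seen at a level like that of the fusions. The kidney list held markers of kidney epithelium and kidney carcinoma. Of 6 with a probe set, 4 (PAX8, KRT8, KRT18 and VIM) were above the array median on every array. LHX1 was below it on every array, and PAX2 fell to 5.87 on the RCC4 FoxO3 array with 4OHT. Of 6 leukocyte markers, 0 were above the array median on every array and 3 were below it on every array, including NKG7 and CD14 at the floor throughout. CD3D, CD3E and CD2 were above it on some arrays, up to 6.87, 7.77 and 7.12. Of 3 endothelial markers, 1 (PECAM1, 8.19 to 8.79) was above the array median on every array and 2 were below it on every array. The summed level of the leukocyte markers (log2 of their summed intensities) was 7.89 to 8.71 with vehicle and 8.60 to 8.98 with 4OHT (EV included), and its part in the results was not tested.

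TNFSF10 rose when the fusions were activated, in both lines, and its response in EV cells was -0.26 and -0.10. In RCC4 its level with vehicle and with 4OHT was 7.64 and 7.37 in EV, 7.50 and 10.66 in FoxO1, and 8.02 and 12.41 in FoxO3 cells. In UMRC2 the same pairs read 11.45 and 11.35 in EV, 11.18 and 12.71 in FoxO1, and 11.50 and 13.26 in FoxO3 cells. Within each line both FoxO arrays with 4OHT were above every other array of that line. The share of all genes with such an order of arrays was not counted, here or for the members below. With vehicle, the fusion lines differed from EV by 0.007 ± 0.092 (limma, adjusted p = 0.99). In these bulk RNA samples, more RNA per cell and RNA in more of the cells cannot be told apart.

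The promoter of TNFSF10 is shown because this member responded most. Beside it stands that of FADD, a member with 1 listed start whose responses to 4OHT ran from -0.06 to 0.34. Both are RefSeq sequences on GRCh38.p14, 250 bases ending just before the transcription start and read in the direction of the gene. Capitals mark matches on either strand to GTAAACA (a FoxO consensus), AAAACA (a shorter forkhead core) or a pair of GAAA half-sites with 2 bases between them (an interferon-type element). TNFSF10 lies on the minus strand at chr3:172523431-172523680 and FADD on the plus strand at chr11:70203046-70203295.
TNFSF10: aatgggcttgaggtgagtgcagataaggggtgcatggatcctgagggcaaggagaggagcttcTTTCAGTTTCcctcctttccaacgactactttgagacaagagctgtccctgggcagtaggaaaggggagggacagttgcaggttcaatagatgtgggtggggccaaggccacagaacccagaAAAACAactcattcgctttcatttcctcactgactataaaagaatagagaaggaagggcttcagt
FADD: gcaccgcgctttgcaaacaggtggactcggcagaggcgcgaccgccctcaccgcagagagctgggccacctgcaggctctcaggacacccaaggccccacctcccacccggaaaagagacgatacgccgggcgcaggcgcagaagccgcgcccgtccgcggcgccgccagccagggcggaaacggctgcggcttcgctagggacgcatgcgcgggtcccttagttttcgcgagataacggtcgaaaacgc
The TNFSF10 window held AAAACA, at bases 65 to 60 before the start, and the GAAA pair on the opposite strand, at bases 187 to 178, and the matches did not overlap. Over the 35116 promoter windows of this length, 17.3% held AAAACA and 3.02% held the GAAA pair. GTAAACA, found in 2.98% of all windows, was in 0 of the 12 windows listed for TNFSF10, FADD, CASP8, FAS and CFLAR. Of the same 12 windows, AAAACA was in 2, the other being 1 of the 4 of CFLAR, and the GAAA pair was in 1. These matches describe letters only.

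On the linear scale TNFSF10 rose 8.96-fold with FoxO1 and 20.9-fold with FoxO3 in RCC4, and 2.88-fold and 3.39-fold in UMRC2, against ratios of 0.833 and 0.935 in the EV cells. Set against EV in the same line, the log2 differences were 3.43 and 4.65 in RCC4 and 1.62 and 1.86 in UMRC2. The FoxO1 and FoxO3 differences share the EV arrays. The mean over the 4 fusion lines was 2.89 ± 0.48 (SE), a 7.41-fold difference with rank 33 from the top of the 14285 genes. FoxO3 against EV gave 3.25 ± 0.55 (limma, adjusted p = 0.0079). FoxO1 against EV gave 2.53 ± 0.55 and did not pass (adjusted p = 0.17), with both lines in the same direction. It passed when the RCC4 FoxO3 pair (adjusted p = 0.011), the UMRC2 FoxO3 pair (adjusted p = 0.011) or the UMRC2 EV pair (adjusted p = 0.0098) was left out.

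**Figure D1:**
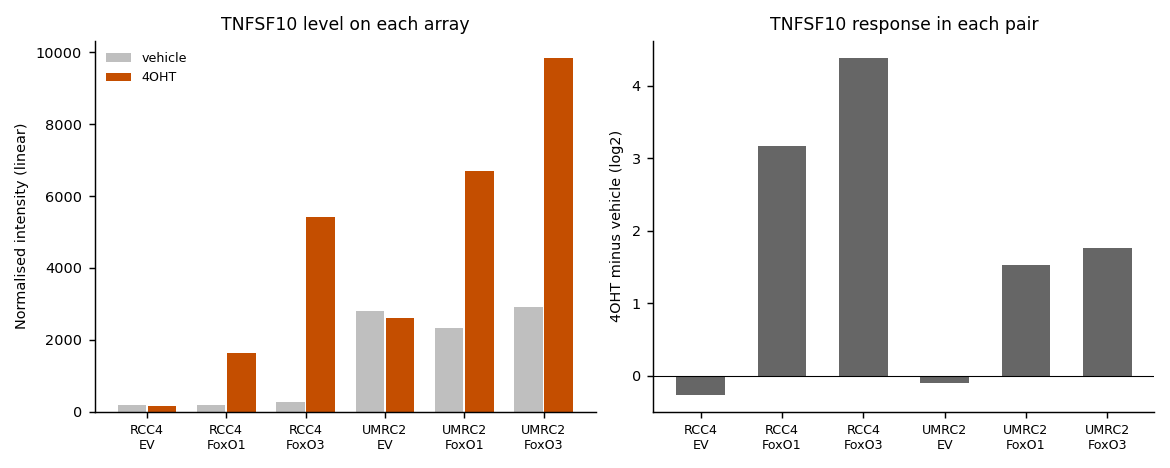
TNFSF10 on each array. Left, normalised intensity on a linear scale with vehicle (grey) and 100 nM 4OHT (orange) for each line and construct; right, the log2 response in each pair. Intensities rose by more units in UMRC2, to 9830, while the log2 response was larger in RCC4, up to 4.39.

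The lines started from different TNFSF10 levels. The vehicle arrays averaged 7.72 ± 0.27 (SD, n = 3 constructs) in RCC4 and 11.38 ± 0.17 in UMRC2, a difference of -3.66 ± 0.14 (limma, adjusted p = 3.2e-07), or 12.6-fold less in RCC4. In intensity units the added amount was the larger in UMRC2: 4371 with FoxO1 and 6929 with FoxO3, against 1439 and 5164 in RCC4. On the log2 scale the order was the reverse, the mean FoxO response relative to EV being 2.30 ± 0.79 larger in RCC4 (unadjusted p = 0.030, adjusted p = 1.0). The line with the larger response thus depends on the scale, and the log2 difference did not pass over all genes. Leaving out the RCC4 EV pair, after which UMRC2 alone sets the difference, lowered FoxO against EV to 1.74 (adjusted p = 0.022).

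Ordered by level, the 3 highest TNFSF10 arrays were UMRC2 FoxO3 with 4OHT (13.26), UMRC2 FoxO1 with 4OHT (12.71) and RCC4 FoxO3 with 4OHT (12.41). The remaining UMRC2 arrays followed between 11.18 and 11.50, then RCC4 FoxO1 with 4OHT at 10.66, and the remaining RCC4 arrays between 7.37 and 8.02. The SD over the vehicle arrays was 0.27 in RCC4 and 0.17 in UMRC2, so neighbours within those groups do not differ beyond their spread, and the step from 12.71 to 12.41 is of the same size as the SD in RCC4.

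No difference between the fusions was detectable for TNFSF10. It was 0.73 ± 0.55 (limma, adjusted p = 0.51), with a 95% interval from -0.55 to 2.01. All 3 TNFSF10 probe sets behaved alike, with FoxO against EV between 2.89 and 3.19 and FoxO3 against EV between 3.25 and 3.61, each past the threshold when 26972 probe sets were fitted singly (2.42% of them higher and 3.08% lower in FoxO against EV). Without the RCC4 FoxO3 pair the FoxO difference was 2.42 (adjusted p = 0.0032) and the FoxO3 difference 2.31 (adjusted p = 0.012).

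Over the whole set, FoxO against EV called 1 member higher (TNFSF10) and 1 lower (TNFRSF10B) of 9, where 3.09% of all genes tested were higher and 4.73% lower at an adjusted p under 0.05. The median of the members was -0.01, and that of all genes -0.05. In FoxO1 against EV 0 members passed, beside 0.0840% of all genes. At an unadjusted p under 0.05 there were 3 members, beside 1431 of the 14285 genes. FoxO3 against EV called 1 member higher (TNFSF10) and 2 lower (TNFRSF10A and TNFRSF10B), beside 6.59% and 10.0% of all genes. The members' median was 0.21 and that of all genes -0.07. With values as deposited the FoxO3 calls over all genes split 126 higher and 457 lower, against 942 and 1430 after quantile normalisation. All of these calls use limma's trended prior variance and the filter on low values: with a constant prior variance, or with no filter, 0 genes passed in either comparison, and TNFSF10 then had adjusted p = 0.17 and 0.22 in FoxO against EV and 0.10 and 0.17 in FoxO3 against EV. Without the line term TNFSF10 in FoxO against EV had adjusted p = 0.061.

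**Figure D2:**
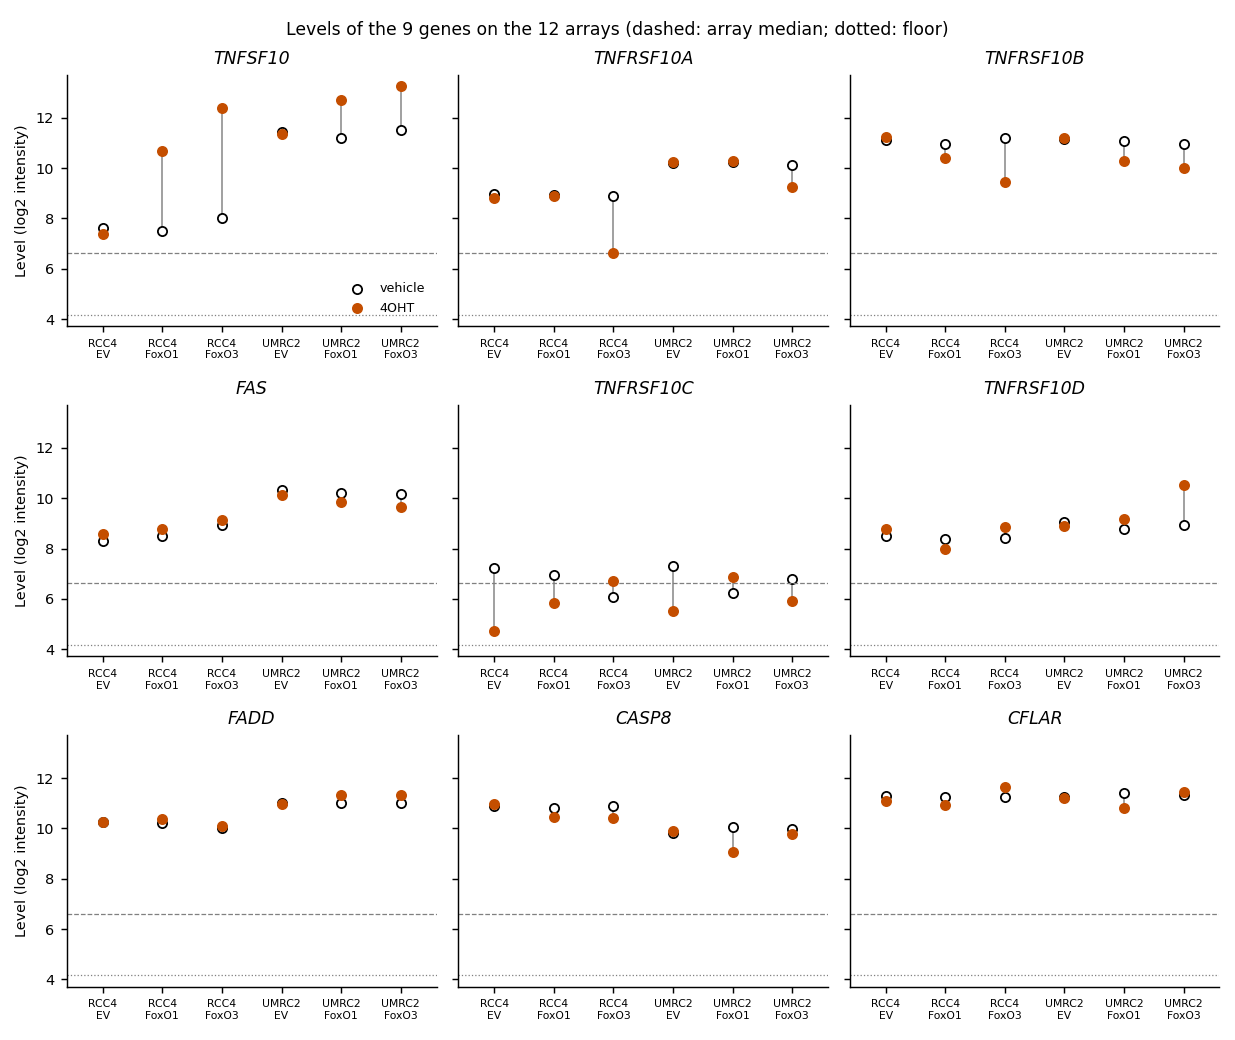
Level (log2 intensity) of each gene on the 12 arrays, with vehicle as open and 4OHT as filled circles joined within each line and construct. The dashed line is the array median (6.62) and the dotted line the floor (4.17). TNFSF10 moves up in the 4 fusion pairs, and TNFRSF10B moves down in the same 4.

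Both death receptors for TRAIL fell with FoxO3, and TNFRSF10B also over both fusions together. TNFRSF10B, which encodes TRAIL receptor 2 (DR5), read 11.12 and 11.23 (vehicle and 4OHT) in EV, 10.97 and 10.38 in FoxO1, and 11.21 and 9.44 in FoxO3 cells of RCC4. In UMRC2 the pairs were 11.15 and 11.21, 11.08 and 10.28, and 10.97 and 10.01. The 4 fusion arrays with 4OHT read 9.44 to 10.38 and the 8 others 10.97 to 11.23. The share of all genes that separate in this way was not counted. FoxO against EV was -1.12 ± 0.23 (limma, adjusted p = 0.030), 2.17-fold lower, and FoxO3 against EV -1.46 ± 0.27 (adjusted p = 0.010).

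With FoxO1 alone TNFRSF10B differed from EV by -0.71 in RCC4 and -0.87 in UMRC2, a mean of -0.79 ± 0.27 that did not pass (adjusted p = 0.38). With FoxO3 it fell by 1.89 and 1.02 relative to EV. The difference between the fusions was -0.67 ± 0.27 (adjusted p = 0.20), or -1.14 (adjusted p = 0.022) without the UMRC2 FoxO3 pair. Leaving out the RCC4 FoxO3 pair gave -0.88 for FoxO (adjusted p = 0.013) and -0.98 for FoxO3 (adjusted p = 0.024). The FoxO call was lost without the RCC4 EV pair (adjusted p = 0.15), the UMRC2 EV pair (adjusted p = 0.081) or the UMRC2 FoxO1 pair (adjusted p = 0.075), with values as deposited (adjusted p = 0.19) and when the probe sets were averaged (-0.78, adjusted p = 0.15). Averaging also ended its FoxO3 call (-0.90, adjusted p = 0.11). All 3 tested TNFRSF10B probe sets were below 0 in FoxO against EV, from -1.27 to -1.04, and 2 passed when fitted singly. The fourth, 1556645_s_at, was at the floor on 4 arrays and below the filter.

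TNFRSF10A, which encodes TRAIL receptor 1 (DR4), fell with FoxO3, and this differed from its response to FoxO1. Its level with vehicle and 4OHT in RCC4 was 8.97 and 8.81 in EV, 8.94 and 8.90 in FoxO1, and 8.88 and 6.64 in FoxO3 cells. In UMRC2 it was 10.21 and 10.25, 10.24 and 10.28, and 10.14 and 9.25. Only the FoxO3 arrays with 4OHT departed from the rest of their line, and that of RCC4 reached the array median.

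FoxO3 against EV was -1.51 ± 0.34 for TNFRSF10A (limma, adjusted p = 0.024), and FoxO1 against EV 0.06 ± 0.34 (adjusted p = 0.98). The direct difference between the fusions was -1.57 ± 0.34 (adjusted p = 0.043), the 1 member called in that comparison of 9, where 2.16% of genes were higher and 3.65% lower. With FoxO3 the value relative to EV was -2.08 in RCC4 and -0.93 in UMRC2. Without the RCC4 FoxO3 pair FoxO3 against EV was -0.90 (adjusted p = 0.10) and the difference between fusions -0.96 (adjusted p = 0.14), and neither call held. The FoxO3 call was also lost without the RCC4 EV pair (adjusted p = 0.12), and the difference between fusions without either FoxO1 pair (adjusted p = 0.31 for RCC4 and 0.073 for UMRC2). With averaged probe sets, no line term and values as deposited, the difference between fusions had adjusted p = 0.13, 0.080 and 0.26, and FoxO3 against EV had 0.052, 0.051 and 0.048. FoxO against EV was -0.72 ± 0.30 (adjusted p = 0.20) and passed without the UMRC2 FoxO3 pair (-1.03, adjusted p = 0.021). All 3 TNFRSF10A probe sets were lower in FoxO3 against EV, from -2.41 to -1.33, of which 1 passed singly, and 1552648_a_at was at the floor on the RCC4 FoxO3 array with 4OHT.

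Fas, the receptor for Fas ligand, was called in no FoxO comparison. FAS read 8.29 and 8.60 in EV, 8.50 and 8.77 in FoxO1, and 8.93 and 9.15 in FoxO3 cells of RCC4, and 10.35 and 10.13, 10.21 and 9.85, and 10.17 and 9.67 in UMRC2. On this probe set every RCC4 pair was higher with 4OHT and every UMRC2 pair lower, EV cells included. That held for 2 of the 5 FAS probe sets: all 5 were lower in the 3 UMRC2 pairs, but 1 was lower in RCC4 EV and 2 in RCC4 FoxO3. With values as deposited the RCC4 FoxO3 pair also fell, from 647.1 to 423.1 intensity units. FoxO against EV was -0.14 ± 0.19 (limma, adjusted p = 0.73), with a 95% interval from -0.60 to 0.31. Of its 5 probe sets 4 were below 0 and 1 above, and 0 passed.

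**Figure D3:**
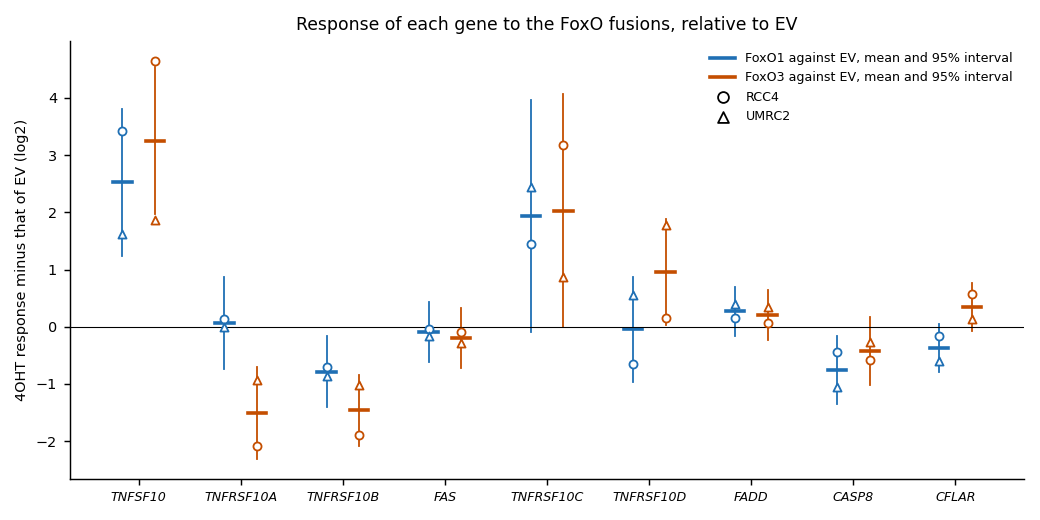
Response to 4OHT minus the EV response in the same line (log2) for each gene, with FoxO1 in blue and FoxO3 in orange. Circles are RCC4 and triangles UMRC2; bars give the mean over both lines and vertical lines its 95% interval from limma. TNFSF10 lies above 0 at every point, TNFRSF10B lies below 0 at every point, and TNFRSF10A below 0 for FoxO3.

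The decoy receptors gave no call. TNFRSF10D, a decoy with a cut-short death domain, read 8.50 and 8.77, 8.37 and 7.98, and 8.43 and 8.85 in the EV, FoxO1 and FoxO3 forms of RCC4, and 9.07 and 8.89, 8.80 and 9.17, and 8.93 and 10.52 in those of UMRC2. The UMRC2 FoxO3 array with 4OHT was the highest by more than 1 log2 unit, and the other 11 lay between 7.98 and 9.17. FoxO3 against EV was 0.96 ± 0.40 (limma, adjusted p = 0.15), and 0.15 in RCC4 against 1.77 in UMRC2. Without the RCC4 FoxO3 pair it was 1.47 (adjusted p = 0.057). Its second probe set, 210654_at, was dimmer and gave 2.33 in RCC4 and 1.79 in UMRC2 relative to EV (2.06 ± 0.59, adjusted p = 0.061). With the probe sets averaged, TNFRSF10D passed in FoxO3 against EV (1.51, adjusted p = 0.034), as it did on its main probe set without the RCC4 EV pair (1.67, adjusted p = 0.027).

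TNFRSF10C, the decoy held by a lipid anchor, was near the array median and varied from pair to pair. It read 7.24 and 4.71, 6.95 and 5.86, and 6.07 and 6.73 in the EV, FoxO1 and FoxO3 forms of RCC4, and 7.31 and 5.53, 6.22 and 6.89, and 6.81 and 5.90 in those of UMRC2. FoxO against EV was 1.98 ± 0.75 (limma, adjusted p = 0.17), but the EV cells themselves fell by 2.53 and 1.77 with 4OHT, while the 4 FoxO responses ran from -1.09 to 0.66. The EV response was -2.15 ± 0.62, with an unadjusted p of 0.0091 and an adjusted p of 1.0, and it enters the FoxO difference with its sign turned. Without the UMRC2 FoxO3 pair TNFRSF10C passed in FoxO against EV (2.68, adjusted p = 0.034) and in FoxO3 against EV (3.43, adjusted p = 0.036). The other 3 one-symbol probe sets of TNFRSF10C did not pass the filter and were at the floor on 1, 10 and 12 arrays, and further probe sets that also name LOC254896 were left out.

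FADD, the adaptor, gave no FoxO call. It read 10.25 and 10.25, 10.21 and 10.36, and 10.03 and 10.10 in the EV, FoxO1 and FoxO3 forms of RCC4, and 11.02 and 10.96, 11.00 and 11.33, and 11.03 and 11.31 in those of UMRC2. All 4 fusion responses were slightly positive, and FoxO against EV was 0.24 ± 0.16 (limma, adjusted p = 0.43; 95% interval -0.13 to 0.61).

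CASP8, the initiator caspase, was lower in all 4 fusion pairs relative to EV on the probe set used for it, without passing the test. It read 10.91 and 10.98, 10.83 and 10.46, and 10.90 and 10.41 in the EV, FoxO1 and FoxO3 forms of RCC4, and 9.84 and 9.90, 10.05 and 9.05, and 10.00 and 9.79 in those of UMRC2. In both lines the FoxO arrays with 4OHT were the lowest 2. FoxO against EV was -0.58 ± 0.22 (limma, unadjusted p = 0.031, adjusted p = 0.16), and its 3 probe sets ranged from -0.58 to -0.27. The dimmest of them, 1553306_at, was above 0 relative to EV in RCC4 FoxO1 (0.24) and UMRC2 FoxO3 (1.12) cells.

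CFLAR gave different values on different probe sets. Its brightest one, 209939_x_at, read 11.27 and 11.11, 11.26 and 10.94, and 11.26 and 11.65 in the EV, FoxO1 and FoxO3 forms of RCC4, and 11.24 and 11.22, 11.42 and 10.81, and 11.32 and 11.44 in those of UMRC2. On it the FoxO1 arrays with 4OHT were the lowest of each line and the FoxO3 arrays the highest. FoxO3 against EV was 0.35 ± 0.18 (limma, adjusted p = 0.25), FoxO1 against EV -0.37 ± 0.18 (adjusted p = 0.55), and FoxO3 against FoxO1 0.72 ± 0.18 (adjusted p = 0.062), which passed without either EV pair (adjusted p = 0.042).

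Of 14 CFLAR probe sets, 13 passed the filter, and all 13 were above 0 in FoxO3 against EV. One of the 13, 217654_at, was above the array median only on the FoxO3 arrays with 4OHT (6.85 in RCC4 and 6.80 in UMRC2). It passed the filter only through those arrays, so its sign in the FoxO3 comparisons adds nothing to these counts. The median of all genes tested, each read from 1 probe set, was -0.07, and that of the 13 CFLAR probe sets was 0.86. Fitted singly among 26972 probe sets, 5 of them passed, beside 5.85% of all probe sets higher and 7.75% lower: 211316_x_at (0.86 ± 0.22), 211862_x_at (1.31 ± 0.33), 208485_x_at (1.44 ± 0.29), 211317_s_at (1.20 ± 0.27) and 239629_at (1.39 ± 0.34), with adjusted p from 0.019 to 0.042. In FoxO1 against EV 4 were above 0 and 9 below, and 0 passed. In FoxO3 against FoxO1 all 13, with 217654_at included, were above 0. Their median was 0.95, where that of all genes tested, again with 1 probe set each, was -0.06. Of the 13, 1 passed (211862_x_at, 1.72 ± 0.33, limma, adjusted p = 0.042), beside 1.35% of probe sets higher and 2.14% lower. The probe sets share the arrays and overlap in sequence, 9 of the 13 have the suffix x_at for possible cross-hybridisation, and they are not replicates of each other. The 5 FoxO3 calls fell to 0 without the RCC4 FoxO3 pair, where 12 of 13 were above 0 with a median of 0.95, to 0 without the RCC4 EV pair, to 1 without the UMRC2 EV pair and to 0 with values as deposited. They fell to 3 without any 1 of the other 3 pairs.

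**Figure D4:**
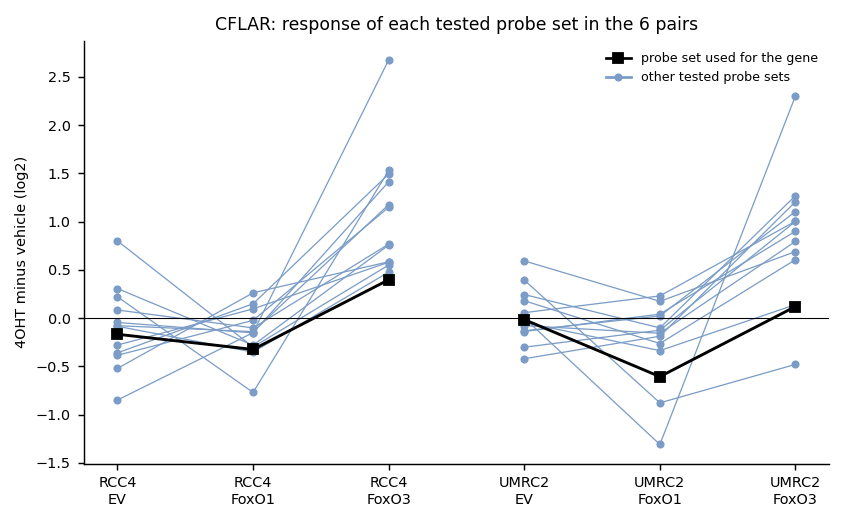
Response to 4OHT (log2) of the 13 tested CFLAR probe sets in the 6 pairs, joined within each line, with the probe set used for the gene in black. All 13 lie above 0 in RCC4 FoxO3 and 12 of 13 in UMRC2 FoxO3, against 3 and 4 in the FoxO1 pairs. Among them 217654_at passed the filter only through the FoxO3 arrays with 4OHT.

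The raw responses carried the same pattern. With FoxO3 the median over the 13 probe sets was 0.77 in RCC4 and 0.90 in UMRC2. With FoxO1 it was -0.15 and -0.16, and in EV cells -0.09 and -0.02. In RCC4 the brightest probe set gave the smallest FoxO3 response of the 13, at 0.40. With a gene's probe sets averaged, CFLAR passed in FoxO3 against EV (0.92, adjusted p = 0.043).

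**Figure D5:**
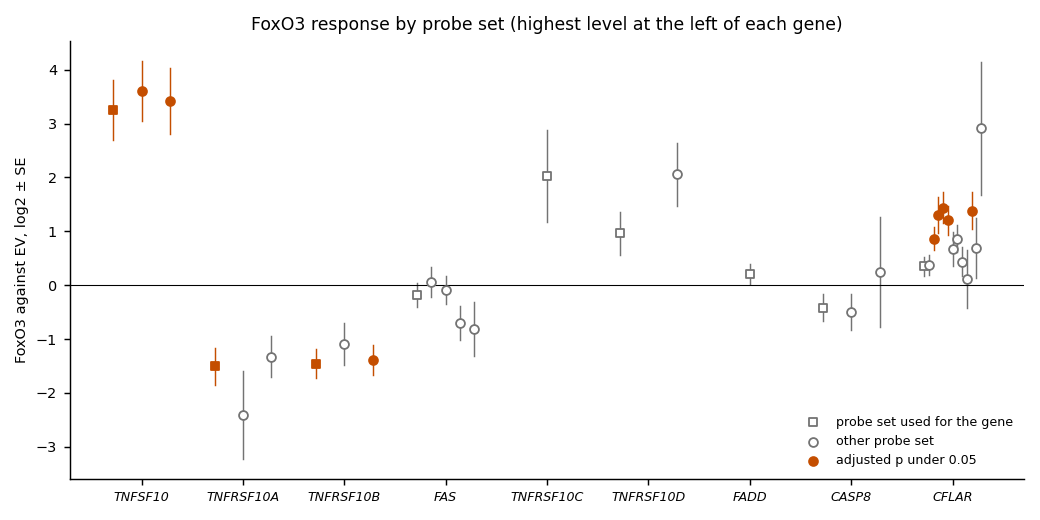
FoxO3 against EV (log2 ± SE from limma) for each tested probe set of the 9 genes, ordered within a gene from the highest to the lowest level. Squares are the probe sets used for the genes and filled symbols passed the test. The 3 TNFSF10 probe sets lie between 3.25 and 3.61, those of TNFRSF10A and TNFRSF10B below 0, and those of CFLAR above 0.

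The starting levels of the set differed widely between the lines. Of the 9 members 1 was higher (CASP8) and 5 lower in RCC4 than in UMRC2 with vehicle, beside 27.3% and 24.1% of all genes. The largest gap after TNFSF10 was that of FAS, at 8.57 ± 0.33 in RCC4 and 10.24 ± 0.09 in UMRC2 (SD, n = 3 constructs each), a difference of -1.67 ± 0.16 (limma, adjusted p = 4.3e-05). TNFRSF10A (-1.26 ± 0.09, adjusted p = 6.3e-06), FADD (-0.85 ± 0.07, adjusted p = 2.7e-05) and TNFRSF10D (-0.50 ± 0.11, adjusted p = 0.0053) were also lower in RCC4. CASP8 was higher there by 0.92 ± 0.08 (adjusted p = 2.4e-05). TNFRSF10B, TNFRSF10C and CFLAR did not pass.

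The line values depend on scaling, since the lines were deposited at different array medians. With values as deposited the median of all genes moved from 0.06 to 0.77, the calls split 9341 higher and 1272 lower against 3898 and 3439, and TNFRSF10D (0.16, adjusted p = 0.28) and CFLAR (0.71, adjusted p = 1.8e-04) changed sign. The members then counted 3 higher (CASP8, CFLAR and TNFRSF10B at 0.79, adjusted p = 1.1e-04) and 3 lower (TNFSF10, TNFRSF10A and FAS), and the FADD call was lost (-0.11, adjusted p = 0.39). With arrays scaled to a common median the counts were again 1 higher and 5 lower.

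With vehicle the fusion lines gave no call among the members. Of the 9, 0 passed in fusion against EV with vehicle (limma), beside 0% of all genes. The differences ran from -0.76 for TNFRSF10C to 0.13 for FAS. At an unadjusted p under 0.05 there were 0 members, beside 1029 of the 14285 genes. In EV cells 4OHT called 0 members, beside 0% of all genes, and 1 member (TNFRSF10C) and 339 genes had an unadjusted p under 0.05. The FoxO response differed between the lines for 0 members, beside 0% of all genes. Here 1 member (TNFSF10) and 337 genes had an unadjusted p under 0.05.

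Other genes of the pathway were counted in the same way. Of a list of 30 ligands, receptors, adaptors, inhibitors and caspases, 24 had a one-symbol probe set and 22 were tested. FoxO against EV called 1 higher and 2 lower, beside 3.09% and 4.73% of all genes, with a median of -0.21 beside -0.05. The gene that rose was TNFRSF21, the death receptor DR6 (1.73 ± 0.36, limma, adjusted p = 0.031). It read 9.85 and 10.22, 10.01 and 10.99, and 9.98 and 12.23 in the EV, FoxO1 and FoxO3 forms of RCC4, and 10.52 and 10.77, 10.22 and 12.94, and 10.38 and 12.61 in those of UMRC2. Each fusion pair rose by more than the EV pair of its line. Without the RCC4 FoxO3 pair the difference was 1.53 (adjusted p = 0.021), and the call was lost with values as deposited (adjusted p = 0.17) and without the UMRC2 EV pair (1.25, adjusted p = 0.19).

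BID, which caspase-8 cuts to carry the death signal to mitochondria, fell by 0.88 (SE 0.15, adjusted p = 0.017), and FAF1, a Fas-associated factor, fell by 0.69 (SE 0.14, adjusted p = 0.026). Both were lower with FoxO3 than with FoxO1. BID differed by -1.10 ± 0.18 (adjusted p = 0.021) and FAF1 by -0.81 ± 0.16 (adjusted p = 0.031) between FoxO3 and FoxO1. BID, with the RCC4 FoxO3 pair left out, kept both calls (-0.92, adjusted p = 0.0096, and -1.20, adjusted p = 0.026), while FAF1 kept that of FoxO against EV (-0.67, adjusted p = 0.025) and lost that of FoxO3 against FoxO1 (-0.78, adjusted p = 0.077). With values as deposited neither gene passed in either comparison, with adjusted p from 0.37 to 0.82. The FoxO calls of both were also lost without either EV pair or the UMRC2 FoxO1 pair, that of FAF1 without the RCC4 FoxO1 pair too, and the calls between fusions without either FoxO1 pair (adjusted p from 0.060 to 0.25 in all these). FAF1 lost its FoxO call in 9 of 15 alternatives, among them arrays scaled to a common median and averaged probe sets. In FoxO3 against EV the list had 2 higher and 3 lower of 22, beside 6.59% and 10.0% of all genes, adding CYLD, a deubiquitinase of death receptor complexes (3.47 ± 0.88, adjusted p = 0.035), and RBCK1, a subunit of the linear ubiquitin ligase (-0.68 ± 0.17, adjusted p = 0.033). CYLD read 8.09 with vehicle and 4.76 with 4OHT in RCC4 EV cells, and its difference was 5.29 in RCC4 against 1.65 in UMRC2. With the RCC4 FoxO3 pair left out FoxO3 against EV was 2.71 for CYLD and 1.52 for TNFRSF21, and neither call held. For RBCK1 it was -0.84. CYLD was 1.51 (adjusted p = 0.061) without the RCC4 EV pair, and RBCK1 -0.39 (adjusted p = 0.23) without the UMRC2 EV pair and -0.52 (adjusted p = 0.12) without the UMRC2 FoxO3 pair. The ligand FASLG varied only from 6.75 to 7.09 over all arrays and gave -0.20 ± 0.41 in FoxO against EV (adjusted p = 0.83).

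Interferon-stimulated and p53-regulated genes were counted because TNFSF10 is known to respond to interferon and TNFRSF10B and FAS to p53. Of 8 tested interferon-stimulated genes 2 were higher and 0 lower in FoxO against EV, beside 3.09% and 4.73% of all genes: IFIT2 (2.00 ± 0.27, limma, adjusted p = 0.0085) and IFIT3 (1.31 ± 0.22, adjusted p = 0.017). Both differed between the fusions, IFIT2 by 3.26 ± 0.31 (adjusted p = 0.0074) and IFIT3 by 1.72 ± 0.26 (adjusted p = 0.018). Without the RCC4 FoxO3 pair FoxO against EV was 1.90 (adjusted p = 0.0056) for IFIT2 and 1.10 (adjusted p = 0.0064) for IFIT3. IFIT2 did not pass without the UMRC2 EV pair (adjusted p = 0.063), nor IFIT3 without either EV pair (adjusted p = 0.069 for RCC4 and 0.071 for UMRC2), and with values as deposited they had adjusted p = 0.079 and 0.47. The IFIT3 difference between fusions did not pass without the RCC4 FoxO1 pair (1.36, adjusted p = 0.15). Of 9 tested p53-regulated genes 0 were higher and 1 lower, beside the same shares, the lower one being the nuclease gene AEN (-2.55 ± 0.31, adjusted p = 0.0068; -2.34, adjusted p = 0.0026, without the RCC4 FoxO3 pair). FoxO3 against EV called 1 of the 9 higher and 1 lower, beside 6.59% and 10.0% of all genes. The higher one was SESN1, a stress-induced sestrin (2.11 ± 0.59, adjusted p = 0.049), which did not pass without the RCC4 FoxO3 pair (1.01, adjusted p = 0.21) or the RCC4 EV pair (1.02, adjusted p = 0.25), and the lower one was AEN (-3.51 ± 0.36, adjusted p = 0.0018).

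The genes whose 6 responses lay nearest to those of TNFSF10, by root mean square difference over the 14285 genes, were MAP3K5 (0.32 log2 units), SERINC5 (0.54), SESTD1 (0.61), CHST7 (0.64) and MYO6 (0.67). MAP3K5, a stress-activated kinase, gave -0.05, 3.31 and 4.18 in the EV, FoxO1 and FoxO3 forms of RCC4 and 0.07, 2.17 and 1.98 in those of UMRC2. Its responses, like those of TNFSF10, were the larger in RCC4 on the log2 scale. The other 8 members stood far down this order, the nearest being TNFRSF10D with 2.24 at rank 3151.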

How the data were processed

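The deposited series matrix holds 1 intensity per probe set and array on a linear scale; per the submitters' processing notes the values were made with MAS5, and its version and settings are not given in the sources used here. Intensities were taken to log2, quantile-normalised and floored at the 20th percentile (18.04). Of 54675 probe sets, 41091 carried 1 gene symbol in the platform annotation, 1801 several and 11721 none, beside 62 controls. Genes that reached the array median on at least 2 arrays were tested. A linear model with terms for construct and line was fitted to the 6 responses (limma 3.58.1 in R 4.3.3; eBayes with a trend on the mean level), leaving 2 residual degrees of freedom. Vehicle levels were fitted with construct and line terms for the fusions and with a line term for the lines. The FoxO response was compared between the lines with FoxO1 and FoxO3 of a line as its replicates. P-values were adjusted by Benjamini-Hochberg over all genes, with a threshold of 0.05, two-sided.

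The members and lists were chosen with earlier results of these data known. All members were named, with the pathway genes past the threshold in FoxO against EV and the 5 genes nearest to TNFSF10. CYLD, RBCK1, FASLG, AEN, SESN1, the tested interferon-stimulated genes and the named cell markers were named after their values were seen. Some genes of the lists are not reported here. The number of arrays limits the precision. Estimates on simulated data were summarised for FoxO, FoxO1 and FoxO3 against EV, FoxO3 against FoxO1 and fusion against EV with vehicle. Those of the EV response and of the comparisons between the lines were not. Alternatives changed the scaling, floor, filter, probe set rule, prior and line term, or left out 1 pair.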

Additional observations from a re-analysis of the deposited data

Results flagged for a closer look

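On the probe set used for it, FAS responded to 4OHT in opposite directions in the lines, EV cells included. Its 3 responses in RCC4 were 0.31, 0.27 and 0.22, a mean of 0.27, and its 3 responses in UMRC2 were -0.21, -0.37 and -0.50, a mean of -0.36. The lines thus differed by 0.62 on the log2 scale, and this difference was not tested. The same pattern was seen on 2 of the 5 FAS probe sets and with arrays scaled to a common median. It was not seen on the other 3 probe sets, where 1 RCC4 pair each fell, nor with values as deposited, where the RCC4 FoxO3 response was -0.61.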

How the results depend on the processing

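The signs of TNFSF10, TNFRSF10A and TNFRSF10B in FoxO3 against EV were the same under all 16 alternatives, but the calls were not. Of the 9 members, FoxO against EV called 2 in the main setting, 1 with values as deposited, 1 with averaged probe sets, 1 without the line term, 0 with no filter, 0 with a constant prior variance and 1 to 4 when 1 pair was left out. FoxO1 against EV called 0, or 0 to 1 when a pair was left out. FoxO3 against EV called 3, or 2 without the line term, 0 with no filter, 0 with a constant prior variance and 2 to 4 when a pair was left out; with averaged probe sets it also called 3, but these were TNFSF10, TNFRSF10D and CFLAR. FoxO3 against FoxO1 called 1, or 0 with values as deposited, no filter, averaged probe sets, a constant prior variance or no line term, and 0 to 2 when a pair was left out. With every probe set fitted singly (chosen after seeing the data) it called 0, counting only the probe set used for each gene. In that fit 1 other CFLAR probe set, 211862_x_at, passed. With values as deposited TNFRSF10D (0.16) and CFLAR (0.71) reversed in RCC4 against UMRC2, where the median of all genes was 0.77. The median of all genes in FoxO against EV was then -0.31. Over all genes, FoxO against EV called 1116, and 184 with values as deposited, 574 with averaged probe sets, 0 with no filter or a constant prior variance and 276 to 1645 when a pair was left out. FoxO1 against EV called 12, with a range of 0 to 189, FoxO3 against EV 2372, with 0 to 2435, and FoxO3 against FoxO1 830, with 0 to 1115. The FoxO response of 1 line against the other could not be fitted without an EV pair. Every response is a pair of arrays of 1 line and construct. No paired analysis was possible beyond this because each combination has 1 array and no replicate number. One array per combination and 2 residual degrees of freedom limit the precision of all these values, and TNFRSF10C lies near the array median, where signal limits it further. The alternatives for CFLAR and FAS probe sets and for the other named pathway, interferon and p53 genes were added after seeing the data.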
